A study of Homo sapiens with 6 samples.

Results

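SEC24A and SEC24D encode cargo adaptors of COPII, the coat that forms vesicles on the endoplasmic reticulum (ER). They were taken by gene name from the deposited table that compares HCCLM3 cells given ginkgolic acid with cells given the vehicle. These are 2 of the 403 genes in that table, and both had more transcript with ginkgolic acid. SEC24D went from 872.4 ± 24.8 to 2144.5 ± 62.2 normalised read counts and SEC24A from 1013.1 ± 70.4 to 2086.0 ± 86.2 (SD, n = 3 libraries per group). Both were picked because they differ in this comparison, so their changes are described here and not tested.

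Proteins made in the ER leave it in COPII vesicles. The small GTPase SAR1 recruits the inner coat of SEC23 and SEC24, and SEC13 with SEC31 forms the outer cage. SEC24 is the subunit that reads sorting signals on cargo, and humans have the paralogues SEC24A, SEC24B, SEC24C and SEC24D. SEC24A and SEC24B form a closely related pair, as do SEC24C and SEC24D, and the pairs differ in part in the signals they bind. Much of the protein secretion of the liver passes through this route. SEC24D is known for the export of procollagen, and inherited defects in it cause a brittle bone disorder.

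HCCLM3 is a human hepatocellular carcinoma line with high metastatic capacity, labelled wild type (WT). Treated cells received 10 µM ginkgolic acid, an alkylated salicylic acid of Ginkgo biloba, for 24 h, and control cells received DMSO for 24 h. Transcript levels were measured by RNA-seq of total RNA, with 3 libraries per group. The labels do not say whether the libraries of a group came from separate cultures, so the spread between them may be technical.

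The deposited values behave as read counts divided by a size factor for each library, which lay between 0.921 and 1.139, and are called normalised read counts. Reads given below take the smallest step between the values of a library as 1 read. That is an inference from the selected genes, since the files state no unit, and the counting errors rest on it. A check of these recovered reads did not accept them as counts for a count model. On that basis the table held between 67006 and 98627 reads per library, and the total depth of the libraries is unknown. Every gene in it had an adjusted p-value of at most 0.04996 and an absolute log2 fold change of at least 1.003, both as the authors' deposited table gives them. Genes outside the table were not analysed here. Of the 8 hepatocyte markers looked up, the albumin gene ALB was in the table, at 19.1 ± 5.97 with DMSO and 5.30 ± 3.83 with ginkgolic acid. None of the 15 fibroblast, leukocyte and endothelium markers was in it. Their part in the results was not tested.

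SEC24D (ENSG00000150961) lies on chromosome 4, 118722823 to 118838683, minus strand, in GRCh38. GENCODE release 29 gives it 14 transcripts, of which 4 are protein-coding. The coding sequence of the longest coding model, spread over a transcript of 23 exons, has 3096 bases. The DMSO libraries had 854.8, 900.8 and 861.5 normalised read counts and the ginkgolic acid libraries 2080.5, 2204.6 and 2148.4. The groups did not overlap: the lowest ginkgolic acid library was 2.31-fold above the highest DMSO library. In reads inferred from the step, these are 854, 945 and 863 reads with DMSO and on 1963, 2030 and 2448 reads with ginkgolic acid. The ratio of the group means was 2.46. On the log2(value + 1) scale the difference was 1.30 (SE 0.07, from the limma fit of the whole table). In bulk RNA, a change in the share of cells that hold a transcript and a change in its amount per cell cannot be told apart.

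SEC24A (ENSG00000113615) lies on chromosome 5, 134648789 to 134727823, plus strand. It has 3 annotated transcripts, all protein-coding, and a longest coding sequence of 3279 bases, also in a transcript of 23 exons. The DMSO libraries had 1045.0, 1061.9 and 932.4 normalised read counts and the ginkgolic acid libraries 2017.9, 2182.9 and 2057.2. These groups did not overlap either, with the lowest ginkgolic acid library 1.90-fold above the highest DMSO library. The inferred reads were 1044, 1114 and 934 with DMSO and 1904, 2010 and 2344 with ginkgolic acid. The ratio of the group means was 2.06, and the log2 difference was 1.04 (SE 0.08, limma). These differences hold for the authors' scaling between libraries. Rescaled to the median ratio over the selected genes, which centres the libraries on genes that differ, they were 0.14 for SEC24A and 0.39 for SEC24D, and they were 0.69 and 0.94 when rescaled to the sum over the table. Of the 403 genes of the table, 61.5% were higher with ginkgolic acid and had no overlap between the groups, and the limma fit put 62.8% of them past an adjusted p of 0.05 as higher and 37.2% as lower. Nothing is read from these shares for genes chosen by the same contrast.

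**Figure D1:**
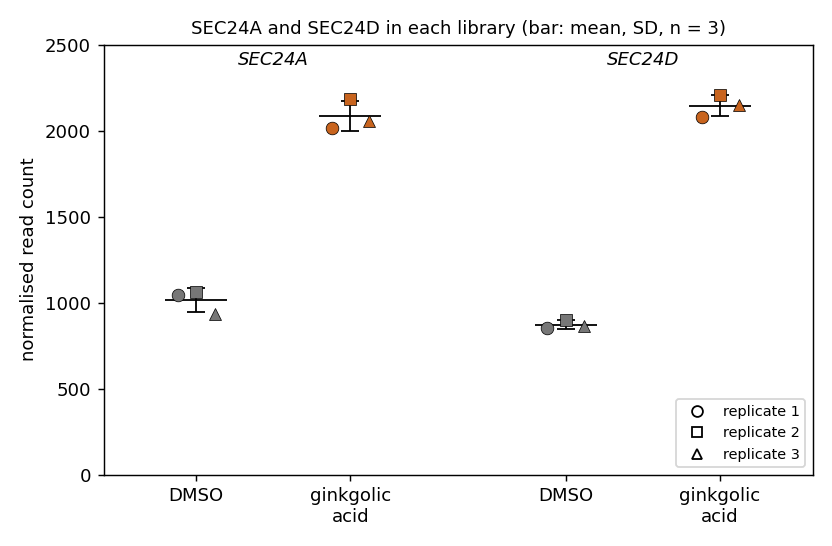
Normalised read counts (vertical axis) of SEC24A and SEC24D in each of the 3 DMSO and 3 ginkgolic acid libraries. Symbols are libraries, and the horizontal line and bar give the mean and SD. Every ginkgolic acid library of either gene lies at 2017.9 or above, and every DMSO library at 1061.9 or below.

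The spread between libraries was small for both genes. For SEC24D the SD was 2.85% of the mean with DMSO and 2.90% with ginkgolic acid, where counting error alone gives 3.36% and 2.16%. For SEC24A it was 6.95% and 4.13%, against 3.11% and 2.19% from counting error. The wider spread of SEC24A with DMSO comes with DMSO replicate 3, its lowest library. Without that library the log2 difference of SEC24A was 0.98, the lowest over the 6 sets that leave out a library, and without DMSO replicate 2 it was 1.08, the highest. For SEC24D these sets gave 1.28 to 1.32. In each group replicate 2 held the highest value of either gene. The same held for 44 of the 403 genes (10.9%). Replicate numbers were not taken to pair the libraries, so nothing is read from this.

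The deposited gene length allows levels to be compared between the genes per kilobase (kb), as normalised read counts per kb of exon. These lengths, 7201 bases for SEC24A and 9920 bases for SEC24D, equal the merged exons of all transcripts in GENCODE 29, so they do not follow the isoform in use. With DMSO, SEC24A stood at 140.7 ± 9.78 per kb and SEC24D at 87.9 ± 2.50 per kb. With ginkgolic acid SEC24A was at 289.7 ± 11.97 per kb and SEC24D at 216.2 ± 6.27 per kb. On this scale SEC24A was the more abundant transcript in all 6 libraries, but the order depends on the length used. The transcripts with the longest coding sequence have 6299 bases for SEC24A and 4030 bases for SEC24D. With those lengths SEC24D would stand above SEC24A. The median DMSO level over the 403 genes was 11.4 per kb.

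The genes did not change to the same degree. The ratio of SEC24D to SEC24A per kb was 0.594, 0.616 and 0.671 in the DMSO libraries. It was 0.748, 0.733 and 0.758 in the ginkgolic acid libraries, above all DMSO values. A ratio within a library is free of the scaling between libraries. Its group means were 0.627 ± 0.040 and 0.747 ± 0.013 (SD, n = 3), a log2 difference of 0.25, which ran from 0.22 without DMSO replicate 1 to 0.30 without DMSO replicate 3. With the authors' scaling this shift of the ratio was smaller than the change of either gene. Rescaled to the median ratio over the selected genes, SEC24A changed by 0.14, less than the ratio. That rescaling centres the libraries on genes selected to differ, so it removes part of the change by construction and is no second estimate of it. The shift was not tested, as both genes were chosen from this contrast.

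**Figure D2:**
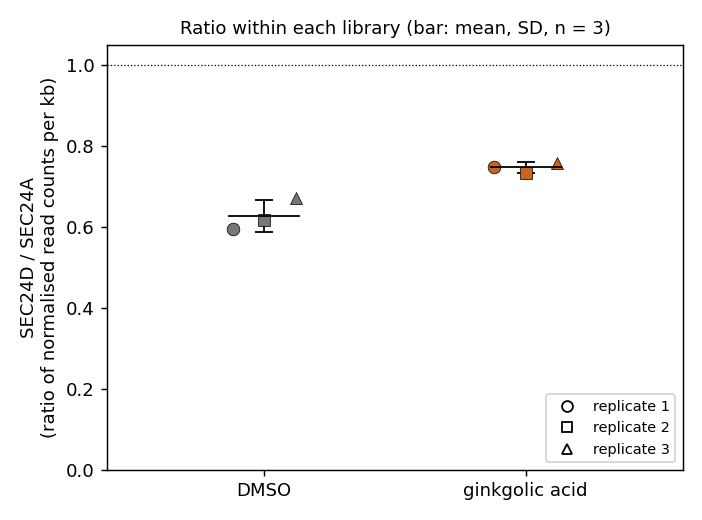
Ratio of SEC24D to SEC24A in normalised read counts per kb (vertical axis) within each library, by group. Symbols are libraries and the line and bar give mean and SD. The DMSO libraries lie between 0.594 and 0.671 and the ginkgolic acid libraries between 0.733 and 0.758. All are below 1 with the merged exon lengths, and this position relative to 1 depends on the lengths used.

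The paralogues shared no long stretch of transcript sequence. None of the 7152 distinct windows of 50 bases in SEC24A transcripts occurred in the sense direction in a transcript of another gene in GENCODE 29, SEC24B, SEC24C and SEC24D included. The same was true of the 10144 windows of SEC24D. In the antisense direction 338 SEC24A windows (4.73%) matched SAR1B, and 15 SEC24D windows (0.148%) matched other genes. SAR1B, which encodes a SAR1 GTPase of the same coat, lies next to SEC24A on the opposite strand (134601144 to 134649271). Annotated exon sequence of SAR1B covers 385 exon bases of SEC24A, 134648789 to 134649173, or 5.35% of its exon length. The strand setting of the counting (not given in the sources used here) decides whether reads of this shared end can be told apart from those of SAR1B. SAR1B itself was not in the table. No annotated exon of another gene overlaps those of SEC24D.

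The start of SEC24A holds short sequence matches to known regulatory elements, whose part in its change was not tested. RefSeq promoter entries (GRCh38.p14, 250 bases before to 50 after the start) matched 1 of the 2 genes, SEC24A. SEC24D had no entry, so its start was not searched. Windows of 30 bases are given on the plus strand, with the match in capitals. The first match is TGACGTGG, the letters of the unfolded protein response element known to be bound by XBP1 and ATF6, and the second is CACGTG, an E-box.
SEC24A, chr5:134648595-134648624: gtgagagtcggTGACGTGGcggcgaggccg
SEC24A, chr5:134648731-134648760: agccggaagtgcCACGTGtcctgattgcgg
The first begins 179 bases and the second 42 bases before the RefSeq start at 134648785. Both strands were searched, and the motifs do not overlap each other here. TGACGTGG was in 256 of 35116 promoter entries (0.729%) and CACGTG in 2548 (7.26%). The full cyclic AMP response element TGACGTCA, in 649 entries (1.85%), was not in the SEC24A window. Among the 10 COPII coat genes with an entry, TGACGTGG was in those of 2, SEC24A and SEC23A. These are matches of letters, and binding was not measured.

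Within the coat, the adaptors SEC24A and SEC24D were in the table and the other 9 of 11 genes were not. Absent were the remaining adaptors SEC24B and SEC24C, the GTPases SAR1A and SAR1B, the inner coat partners SEC23A and SEC23B, and the outer coat genes SEC13, SEC31A and SEC31B. The authors' adjusted p-values imply that 16104 genes were tested, of which 253 in the table were higher with ginkgolic acid (1.57%) and 403 differed in either direction (2.50%). Nothing is read from the share of the coat against this, since its members were chosen with the contrast known. Absence does not show that a coat gene was unchanged. The ranks contained in the adjusted p-values imply that 5316 genes (33.0%) were at or under the largest adjusted p of the table at any fold change, so most of these were not in it.

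No gene of the wider ER to Golgi lists was in the table. This covers 0 of 12 genes of COPII assembly and ER exit sites, such as the SAR1 exchange factor PREB and the scaffold SEC16A. It also covers 0 of 24 export receptors, such as LMAN1 and SURF4, 0 of 14 genes of the retrograde COPI coat, and 0 of 34 tethers, Rabs and SNAREs. Of 15 proteins known to leave the ER with SEC24, SCAP and ATF6 among them, 0 were in the table. The same held for 0 of 18 translocon and signal peptidase genes and 0 of 24 genes of the ER unfolded protein response, among them XBP1 and HSPA5. With 2.50% of all tested genes in the table, lists of this size hold few or no genes at the background share, and nothing is read from these zeros.

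CREB3L3 was the exception among the 7 genes of the CREB3 family and its proteases. It encodes a liver transcription factor that is held in the ER membrane, travels to the Golgi and is cut there by the proteases MBTPS1 and MBTPS2. Its DMSO libraries had 242.2, 219.2 and 221.6 normalised read counts and its ginkgolic acid libraries 747.2, 685.3 and 657.3. The groups were 227.7 ± 12.6 and 696.6 ± 46.0, without overlap, a 3.06-fold ratio. In all, 3 of the 158 distinct genes of the 9 transport and ER stress lists were in the table (1.90%), and all 3 were higher. That is near the 2.50% of all tested genes and is no result about these lists.

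SEC24D and SEC24A were among the genes of the table with the highest counts, which take no account of gene length. By mean normalised read count over the 6 libraries SEC24A (1549.5) was at place 12 and SEC24D (1508.4) at place 14 of 403, where the median gene had 39.5. By size of change they were not extreme. The authors' deposited table gives log2 fold changes of 1.30 for SEC24D and 1.04 for SEC24A, places 138 and 239 among the 253 higher genes, whose median was 1.34. The genes next to SEC24D in that order were LINC01589 and GFPT2 (1.30 each), and those next to SEC24A were LINC02547 and CAPN10-DT (1.04 each). The higher genes closest to the selection limit were PIK3IP1 and UCP2 (1.003 each). Of the 12 higher genes with a mean of at least 1000, SEC24D was at place 5 by fold and SEC24A at place 11.

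**Figure D3:**
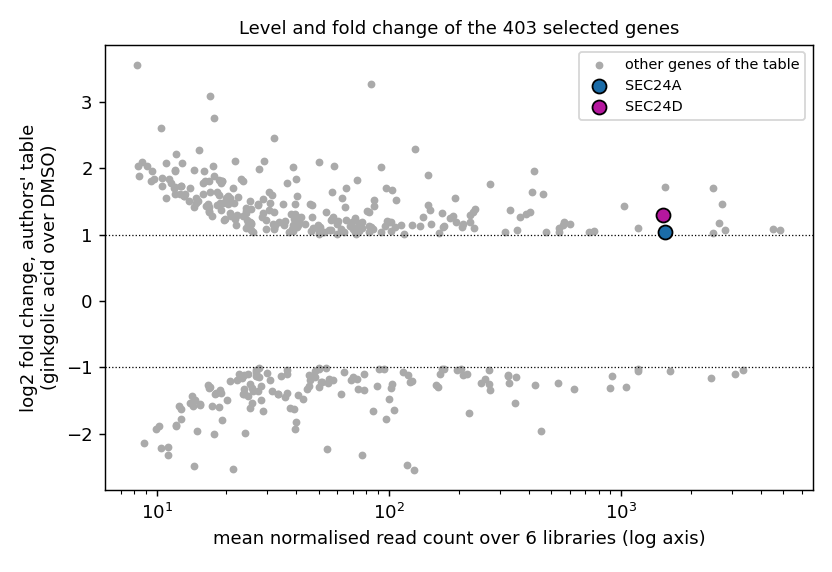
Log2 fold change from the authors' deposited table (vertical axis, ginkgolic acid over DMSO) against the mean normalised read count over 6 libraries (horizontal log axis) for the 403 genes. Dotted lines mark the selection limit of 1 in either direction. SEC24A and SEC24D lie far to the right of the median of 39.5, at log2 fold changes of 1.04 and 1.30.

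Both genes had small p-values, which belong to the selection and are no independent evidence. The adjusted p in the authors' deposited table was 2.66e-86 for SEC24D and 2.30e-48 for SEC24A. The ratio of p to adjusted p places SEC24D at rank 6 and SEC24A at rank 25 among all 16104 genes tested. Of the 25 ranks up to SEC24A, 15 are filled by genes of the table, and the genes at the other 10 were not analysed here.

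**Figure D4:**
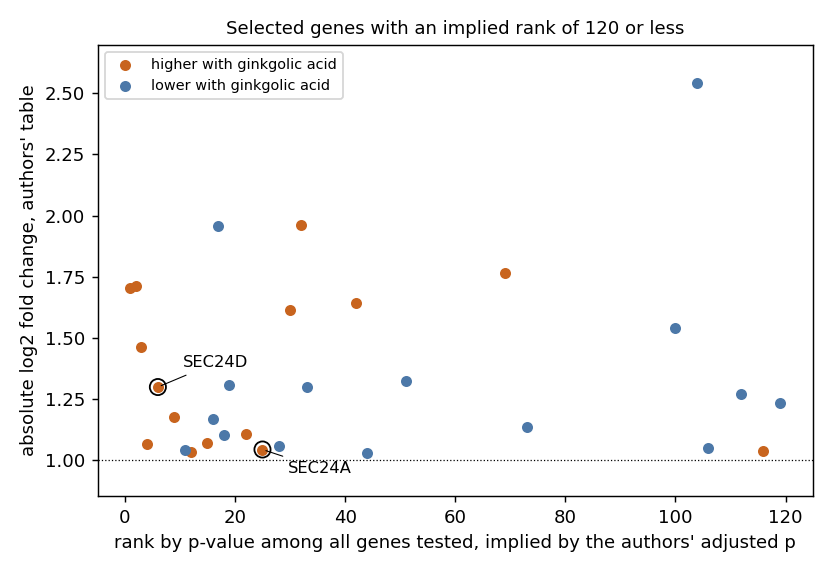
Absolute log2 fold change from the authors' deposited table against the rank by p-value implied by the adjusted p-values, for genes of the table with a rank of 120 or less. Orange points were higher and blue points lower with ginkgolic acid, circles mark SEC24D (rank 6) and SEC24A (rank 25), and gaps along the axis are ranks of genes outside the table.

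The genes with the most similar pattern over the 6 libraries were sought among the 101 others with a mean of at least 100, by Pearson correlation of log2(value + 1). For SEC24A they were CYP1B1 (r = 0.999), LAMB3 (r = 0.997) and BBOF1 (r = 0.997). For SEC24D they were INSIG1 (r = 0.999), ACSS2 (r = 0.999) and CYP1B1 (r = 0.998). All these genes share the 6 libraries and were selected for a difference between the groups, so the values mostly restate that difference: 51 genes exceeded r = 0.95 with SEC24A and 53 with SEC24D. INSIG1, which holds SCAP and the SREBP precursors back from COPII vesicles, had 1633.6 ± 46.4 normalised read counts with DMSO and 3341.1 ± 134.0 with ginkgolic acid.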

How the data were processed

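RNA-seq libraries of 3 ginkgolic acid and 3 DMSO samples were grouped by the sample titles. The submitters' processing notes name DESeq2 1.20.0, featureCounts 1.5.0-p3, HISAT2 2.0.5, CASAVA 1.8 and fastp, and the build hg38. Settings of these tools: not given in the sources used here. What the authors deposited is a signal per gene and library without a stated unit, in which each value is a whole multiple of a step (tolerance 1e-06), and a second table headed FPKM with the same values (largest difference 4.64e-08). The deposited table also holds log2 fold changes, p-values, adjusted p-values and gene lengths. All 403 genes had the positions of GENCODE 29.

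Changes were computed on log2(value + 1) with limma 3.58.1 in R 4.3.3, with a trend in the variance prior, a mean of at least 1 and Benjamini-Hochberg adjustment over all 403 genes. It gave 253 higher and 150 lower genes, which only describes selected genes, and was tested on simulated data. The members, lists and rules were chosen with earlier results of these data known. Named were both members, all list genes in the table, the 3 genes most like each member in pattern, and the neighbours of each by fold. PIK3IP1 and UCP2 were named after their values were seen. Deviations of same-numbered libraries correlated at -0.03, 0.00 and -0.07 across genes, so the numbers were not taken to pair them. Tables and plots were made in Python 3.11.15 (matplotlib 3.10.9, pandas 2.3.3, numpy 2.4.6).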

Additional observations from a re-analysis of the deposited data

How the results depend on the processing

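The log2 changes of SEC24A, of SEC24D and of their ratio kept their sign under every alternative run. Scaling between libraries moved their size. Median-of-ratios scaling over the table, which centres the libraries on selected genes, gave 0.14 for SEC24A and 0.39 for SEC24D and moved the median of all genes from 1.10 to 0.22. Scaling to the sum over the table gave 0.69 and 0.94, with a median of 0.76. The scaling cannot be settled from selected genes alone, and the ratio of the members does not depend on it. Median-of-ratios scaling left 61 genes called higher and 150 lower by limma, and a minimum mean of 50 left 173 genes, 109 higher and 64 lower, because fewer genes were tested. Leaving out each library gave 0.98 to 1.08 for SEC24A, 1.28 to 1.32 for SEC24D, 0.22 to 0.30 for the ratio, and 250 to 253 higher and 148 to 150 lower genes. With the replicate block the log2 changes were 1.04 and 1.30, with an SE of 0.07 each, the ratio 0.25 and the counts 253 and 150. Pseudocounts of 10 and 0.1 changed no value by more than the spread between libraries. The count models edgeR and DESeq2 were planned only if the check of recovered reads accepted them. It did not accept the reads inferred from the step, so these models were not run and those reads remain an inference. On that inference each library held at least 854 reads of either gene.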
